A study of Mus musculus with 53 samples.

Results

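The genes described here encode secreted inflammatory factors and the enzymes that make prostaglandins. They are 10 genes of the 43432 listed in each of 2 expression tables, taken by symbol: the cytokines Il6 and Lif, the growth factors Csf1 and Hgf, the prostaglandin synthases Ptgs1, Ptgs2 and Ptges, and the soluble innate defence proteins Ptx3, Saa3 and Lcn2. Their levels were followed over 8 groups of mouse embryonic fibroblasts (MEFs), connective tissue cells grown from mouse embryos.

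As background, fibroblasts make few of these factors at rest and secrete them after injury or infection, when NF-kB, C/EBP and AP-1 factors act on the promoters of these genes. IL-6 and LIF are related cytokines that signal through the shared receptor chain gp130 (Il6st) to STAT3, CSF1 keeps macrophages alive through its receptor Csf1r, and HGF acts on epithelial cells through the receptor Met. Prostaglandin synthesis starts with arachidonic acid, which phospholipases release from membranes: PTGS1 (COX-1, made constitutively in many cells) and PTGS2 (COX-2, inducible) turn it into prostaglandin H2, and PTGES turns that into prostaglandin E2. PTX3 is a pentraxin that binds microbes and complement, SAA3 is an acute-phase apolipoprotein, and LCN2 (lipocalin 2) binds bacterial iron carriers.

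The cells were wild type (WT) or labelled as knocked out for Anp32e (KO), which encodes a chaperone that takes the histone variant H2A.Z out of chromatin. The DAC table, in FPKM, held 2 WT and 2 KO libraries from cells given the solvent DMSO and 3 WT and 3 KO libraries from cells given DAC, decitabine, which blocks DNA methyltransferases. The siRNA table, in RPKM, held 3 libraries each of WT and KO cells given an siRNA labelled NT as the control or an siRNA against H2AZ. The labels give no dose, time, age, strain or knockout allele, and do not say whether the KO cells were 1 clone. They call the libraries biological replicates, except the KO H2AZ siRNA libraries, which are labelled only as replicates. They do not say that these were separate cultures or embryos, so p-values measure the spread between these libraries. Another 31 samples, which profile chromatin, were not analysed here.

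Each DAC table library held 27503472 to 36910532 gene reads, and each siRNA table library 31928320 to 47172427. Anp32e was at 14.0 to 17.2 FPKM in WT and 4.87 to 7.48 FPKM in KO libraries, and at 16.9 to 21.4 RPKM in WT and 4.36 to 6.12 RPKM in KO libraries, so reads remained in every KO library. H2afz had a mean of 201.6 RPKM with NT siRNA and 17.2 RPKM with H2AZ siRNA in WT cells, and 193.9 and 27.9 RPKM in KO cells. H2afv, a second H2A.Z gene, was also lower with H2AZ siRNA, at 17.2 and 1.57 RPKM in WT and 22.5 and 3.01 RPKM in KO cells. Of 12 fibroblast markers 10 or 11 had a mean of at least 1 in every group. Of 14 macrophage markers 2 or 3 had a mean of at least 1 in each group, and Tyrobp had no read in any library. The Y-linked gene Ddx3y was at 0 to 0.0720 in WT and 3.02 to 6.73 in KO libraries over both tables, so genotype and the sex of the cultures cannot be told apart in any KO against WT comparison. Xist, a noncoding RNA made from the silenced X chromosome of female cells, was at 136 to 210 FPKM in WT, 0.579 to 0.923 FPKM in KO DMSO and 28.5 to 44.4 FPKM in KO DAC libraries, so that KO DAC libraries held reads of both genes. In the siRNA table it was at 4.12 to 6.33 RPKM in WT and at most 0.00144 RPKM in KO libraries. Of the DAC table's groups KO DMSO stood apart on the first principal component of the tested genes (66.2 and 66.8, against -29.9 to -1.90 for the other libraries). WT DAC replicate 3, KO DAC replicate 1, WT NT replicate 1 and KO NT replicate 1 stood apart from the rest of their groups. The chi-square of read numbers per gene was 31.2 to 49.3 for DAC table pairs that held one of them and 4.57 to 6.76 for the others, while for siRNA libraries it was 25.1 to 38.2 and 4.19 to 16.9. The counts of members were also made without them.

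The RefSeq promoter windows of these genes (GRCm38.p6, the 250 bases before a listed start) are shown because several members moved together and because DAC blocks the methylation of CpG pairs. Of 32851 such windows, all 10 genes had 1 and Hgf had 2. In the 5 below, 5′ to 3′ on the gene's strand, capitals mark matches on either strand to the NF-kB site, the C/EBP letters TTNNGNAA or the AP-1 letters TGANTCA. The first 3 belong to genes that rose with DAC in WT and KO cells, and the last 2 to genes that were high in KO DMSO libraries and fell with DAC there. The Il6 window is chr5:30012864-30013113 on the plus strand, Csf1 is chr3:107760470-107760719 on the minus strand, Ptgs2 is chr1:150099781-150100030 on the plus strand, Ptgs1 is chr2:36230176-36230425 on the plus strand and Saa3 is chr7:46715677-46715926 on the minus strand.
Il6: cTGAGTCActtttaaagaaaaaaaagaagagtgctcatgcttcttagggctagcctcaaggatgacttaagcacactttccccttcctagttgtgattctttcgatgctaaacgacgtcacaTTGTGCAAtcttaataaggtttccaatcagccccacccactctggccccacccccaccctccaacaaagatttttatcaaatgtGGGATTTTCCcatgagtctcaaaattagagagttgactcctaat
Csf1: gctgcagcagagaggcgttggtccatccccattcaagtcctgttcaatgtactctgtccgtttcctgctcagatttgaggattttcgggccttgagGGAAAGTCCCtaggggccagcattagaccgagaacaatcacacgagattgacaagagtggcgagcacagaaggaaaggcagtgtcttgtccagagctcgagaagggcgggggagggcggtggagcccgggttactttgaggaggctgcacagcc
Ptgs2: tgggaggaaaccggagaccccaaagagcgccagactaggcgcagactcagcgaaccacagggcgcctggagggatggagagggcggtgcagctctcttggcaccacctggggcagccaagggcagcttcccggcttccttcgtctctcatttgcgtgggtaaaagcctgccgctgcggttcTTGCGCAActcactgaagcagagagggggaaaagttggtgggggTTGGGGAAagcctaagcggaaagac
Ptgs1: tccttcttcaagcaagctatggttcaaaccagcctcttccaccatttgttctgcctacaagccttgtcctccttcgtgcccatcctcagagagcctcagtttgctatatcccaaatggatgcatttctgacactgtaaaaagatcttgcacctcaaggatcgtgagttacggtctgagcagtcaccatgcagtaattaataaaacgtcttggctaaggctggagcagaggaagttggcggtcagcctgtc
Saa3: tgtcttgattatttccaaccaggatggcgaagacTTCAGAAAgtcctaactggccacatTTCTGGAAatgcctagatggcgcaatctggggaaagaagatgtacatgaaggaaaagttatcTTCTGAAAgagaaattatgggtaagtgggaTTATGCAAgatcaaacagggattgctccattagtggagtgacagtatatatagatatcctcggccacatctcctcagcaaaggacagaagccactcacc
The NF-kB site was matched in the windows of Il6 (first base at -44 from the start), Csf1 (-154) and Lif (-178), and in 7.25% of all windows. Saa3 had 4 C/EBP matches (-216, -191, -129 and -99) and Ptgs2 had 2 (-69 and -25). Il6, Ptges, Ptx3, Lcn2 and the second Hgf window had 1 each, while 36.8% of all windows had at least 1. AP-1 letters were found in Il6 and Lif and in 6.75% of all windows. The letters TATAAA on the gene's strand (7.59% of all windows) and the STAT letters TTCNNNGAA on either strand (7.02%) were found in no member window. The Ptgs1 window held none of the marked letters. It lies inside the span listed for its gene (chr2:36216742-36258593), as do the windows of Ptges and Saa3 and the second of Hgf. Starts of these genes without a window were not searched. Ptgs2 had 13 CpG pairs in its window, Csf1 10, Ptges 8 and Lif 6, and the other genes had 3 to 5, against a median of 6 and quartiles of 2 and 16 over all windows. These matches describe the sequences and are no evidence of binding or methylation.

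In KO against WT cells under DMSO, Saa3, Ptgs1, Lif, Lcn2 and Il6 were higher in KO, and Ptx3, Ptges and Csf1 were lower. The largest gap upward was that of Saa3 and the largest downward that of Ptx3. A gene was called when limma's Benjamini-Hochberg adjusted p over all 16434 tested genes was under 0.05, and log2 fold changes are on the scale of log2(FPKM + 1), which understates those of low genes. The 5 members called higher and 3 called lower stand beside 19.6% of all tested genes called higher and 22.9% called lower. All 10 passed the filter of at least 1 FPKM in at least 2 libraries. Saa3 and Lcn2 passed it only through KO DMSO libraries and Il6 only through DAC libraries, so Saa3 and Lcn2 had to differ here. The median log2 fold change was 0.16 over the members and -0.04 over all tested genes.

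**Figure D1:**
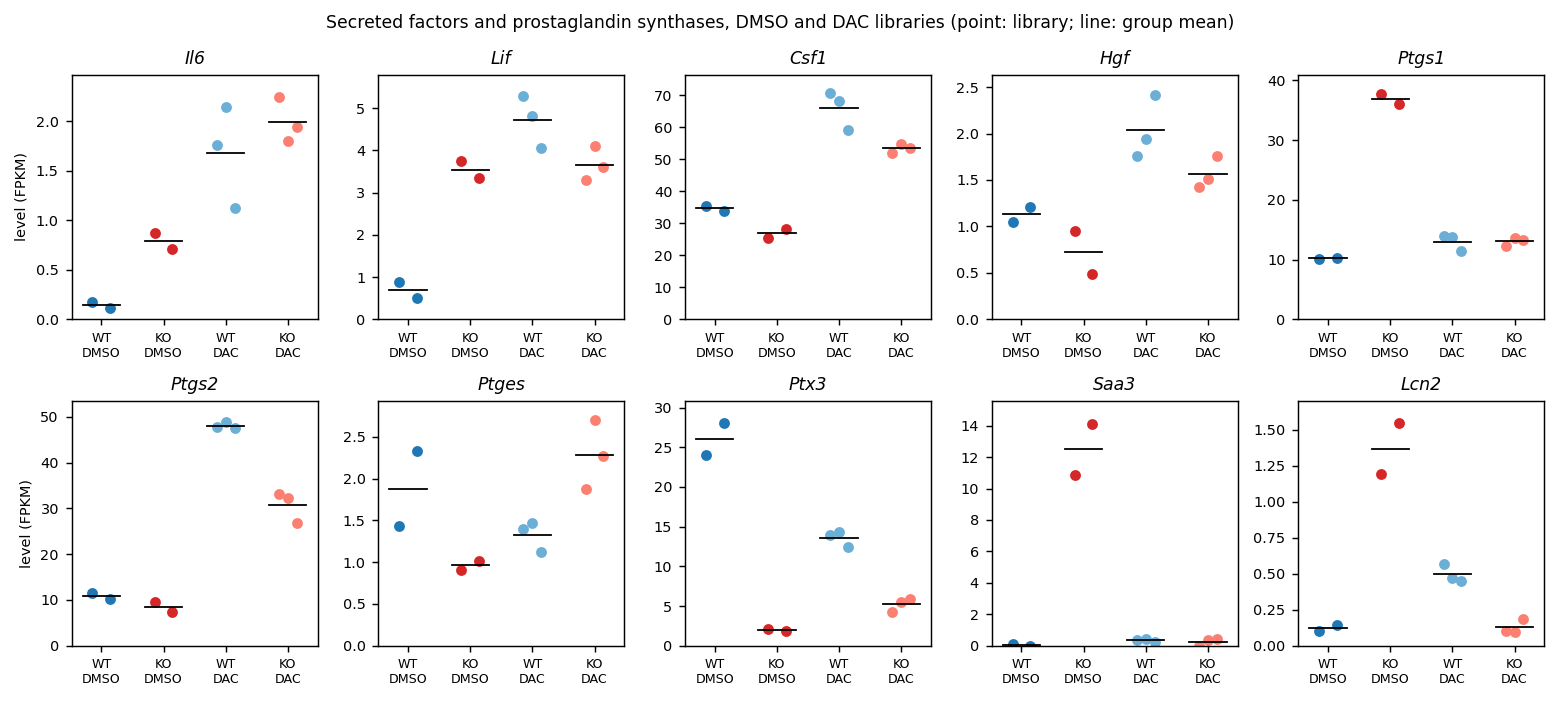
Levels of the 10 genes in FPKM (vertical axis, from 0, with its own scale per gene) in the 4 DMSO libraries (2 of each genotype) and the 6 DAC libraries (3 of each genotype); points are libraries and lines are group means. Saa3, Lcn2 and Ptgs1 are highest in KO DMSO, Ptgs2 and Csf1 are highest in the DAC groups, and Ptx3 is highest in WT DMSO.

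Among the cytokines, Lif was at 0.877 and 0.511 FPKM in the WT DMSO libraries and 3.74 and 3.34 FPKM in the KO DMSO libraries. Both KO values lay above both WT values, and the change was 1.43 ± 0.14, adjusted p = 6.8e-05 (log2 ± SE). For Il6 the values were 0.18 and 0.117 FPKM in WT (6 and 4 reads) and 0.87 and 0.711 FPKM in KO (26 and 24 reads), all under 1 FPKM and without overlap. The Il6 difference was 0.64 ± 0.18, adjusted p = 0.018, and it was not called when 1 library was left out (adjusted p of 0.0555 without WT DMSO replicate 1, 0.0841 without WT DMSO replicate 2 and 0.0927 without KO DMSO replicate 1, in a range of 0.0013 to 0.0927 over its alternatives). Csf1, the most abundant member in WT DMSO, was at 35.5 and 33.9 FPKM in WT and 25.5 and 28.3 FPKM in KO. Its level was lower in both KO libraries (-0.36 ± 0.09, adjusted p = 0.0105), a call that was lost at adjusted p of 0.0633 without WT DMSO replicate 1 and 0.0797 without KO DMSO replicate 1 (range 0.0019 to 0.0797). Hgf, at 1.05 and 1.21 FPKM in WT and 0.95 and 0.491 FPKM in KO, was not called (-0.32 ± 0.16, adjusted p = 0.131), and was called without KO DMSO replicate 1 (adjusted p = 0.0439, range 0.044 to 0.582).

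The prostaglandin enzymes differed in direction. Ptgs1, the constitutive synthase, was at 10.1 and 10.3 FPKM in WT DMSO and 37.6 and 36.1 FPKM in KO DMSO libraries. The KO values lay far above the WT values, and those within each genotype lay close together (1.76 ± 0.09, adjusted p = 1.5e-06). Ptgs2, the inducible synthase, was at 11.6 and 10.3 FPKM in WT and 9.59 and 7.42 FPKM in KO, a difference that missed the threshold (-0.34 ± 0.13, adjusted p = 0.0606). It was called with a filter at 5 (adjusted p = 0.0499), by limma-voom on recovered reads (0.0376), and at 0.0208 without KO DMSO replicate 1 and 0.0388 without KO DAC replicate 3 (range 0.021 to 0.345). Ptges was at 1.43 and 2.33 FPKM in WT and 0.906 and 1.02 FPKM in KO libraries. It was lower in KO (-0.54 ± 0.17, adjusted p = 0.0335), but the call ended with no filter (adjusted p = 0.0651) and with only the groups compared (0.0825). It also ended at 0.215 without WT DMSO replicate 2, 0.133 without KO DMSO replicate 1, 0.0863 without KO DMSO replicate 2 and 0.0501 without KO DAC replicate 3 (range 0.012 to 0.215), and its log2 fold change was -0.31 without WT DMSO replicate 2.

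Of the soluble defence proteins, Ptx3 was at 24.1 and 28.1 FPKM in WT DMSO and 2.06 and 1.91 FPKM in KO DMSO libraries. It was lower in both KO libraries by a log2 fold change of -3.18 ± 0.13, adjusted p = 4.2e-07. Saa3 was at 0.123 and 0 FPKM in WT (2 and 0 reads) and 10.9 and 14.1 FPKM in KO (159 and 233 reads). The WT libraries were at or near 0, so the fitted change of 3.66 ± 0.19 (adjusted p = 1.3e-06) depends on the added 1 and is not read as a fold. Lcn2 was at 0.0994 and 0.145 FPKM in WT (8 and 12 reads) and 1.19 and 1.55 FPKM in KO (86 and 126 reads), higher in both KO libraries (1.07 ± 0.12, adjusted p = 1.2e-04). By limma-voom on recovered reads, where a small constant is added to the read numbers in place of the 1, the log2 fold changes were 2.32 for Il6, 2.39 for Lif, -0.93 for Ptges, 7.54 for Saa3 and 3.44 for Lcn2. With 2 and 0 WT reads the Saa3 value depends on that constant, as do the limma-voom values of Saa3 below.

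Markers of mesothelium, the lining of body cavities, were highest in KO DMSO, as were Saa3, Lcn2 and Ptgs1. The summed level of 11 such markers was 10.1 to 12.3 FPKM in WT DMSO, 1040 to 1073 FPKM in KO DMSO, 43.5 to 57.9 FPKM in WT DAC and 122.0 to 143.4 FPKM in KO DAC libraries. With DAC the sum was thus also higher in KO than in WT. Saa3 and Ptgs1 overlapped between the genotypes there, and Lcn2 was lower in KO. In KO DMSO 10 of the 11 had a mean of at least 1, against 3 in WT DMSO, where Lrrn4 and Gpm6a were at 0. Summed fibroblast markers (12 genes) were at 3395 to 3519 FPKM in WT DMSO and 2066 to 2101 FPKM in KO DMSO libraries, with 2 of 11 tested markers higher and 7 lower in KO. The part of either list in the members' levels was not tested. In such bulk libraries fewer cells of a type and less RNA per cell cannot be told apart. Summed macrophage markers (14 genes) were at 14.3 to 16.8 FPKM in WT DMSO and 10.8 to 12.9 FPKM in KO DMSO libraries. In each of these groups 3 of the 14 had a mean of at least 1, while Adgre1 and Tyrobp were at 0. Summed endothelial markers (7 genes) were at 1.39 to 2.79 FPKM. The inducers Il1b and Tnf were at 0 and at most 0.0887 FPKM in the DMSO libraries.

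Genes of the same pathways were counted from 8 lists, without the members. In the IL-6 family 3 of 9 genes rose in KO DMSO and 3 fell. The receptor chain Il6st was at 53.2 FPKM in WT and 27.0 FPKM in KO (log2 -0.95 ± 0.05, adjusted p = 1.2e-06). Among 5 other colony-stimulating factors and receptors 2 were higher and 2 lower. Of 9 genes of HGF, its activation and its receptor, 6 were higher and 1 lower. Met, the HGF receptor, had a mean of 7.20 FPKM in WT and 23.5 FPKM in KO (log2 1.58 ± 0.08, adjusted p = 1.4e-06), and Spint2, which inhibits HGF-activating proteases, was at 0.439 and 6.62 FPKM (log2 2.41 ± 0.17, adjusted p = 7.9e-06). Of 11 genes of prostaglandin synthesis 4 were higher and 1 lower. Ptgds, the prostaglandin D2 synthase, was at 0.0390 FPKM in WT and 18.5 FPKM in KO (log2 4.23 ± 0.10, adjusted p = 1.8e-08). Of 9 genes of prostaglandin receptors, transport and breakdown 1 was higher and 4 were lower, with the prostaglandin F receptor Ptgfr at 2.98 FPKM in WT and 0.150 FPKM in KO (log2 -1.79 ± 0.12, adjusted p = 6.1e-06). Of 6 other acute-phase genes 4 were higher and 0 lower, led by haptoglobin (Hp), at 1.32 ± 0.532 FPKM in WT and 12.7 ± 2.13 FPKM in KO (SD, n = 2 each; log2 2.57 ± 0.20, adjusted p = 1.3e-05). Of 29 genes of NF-kB, IL-1 and Toll-like receptor signalling 7 were higher and 5 lower, and of 15 C/EBP, STAT3 and mRNA decay regulators 6 were higher and 2 lower. Among these, Zfp36, whose product triggers decay of cytokine mRNAs, was at 88.3 FPKM in WT and 49.4 FPKM in KO (log2 -0.83 ± 0.11, adjusted p = 3.9e-04).

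With DAC, WT cells had more Ptgs2, Lif, Il6, Csf1, Hgf, Lcn2 and Ptgs1 mRNA than with DMSO, and less Ptx3. Ptgs2 rose most on the scale of log2(FPKM + 1), but by limma-voom on recovered reads it rose by 2.14, less than Il6 (3.36) and Lif (2.81). Ptges and Saa3 were not called. The 7 members called higher and 1 called lower stand beside 14.5% of all tested genes called higher and 13.8% called lower. The median log2 fold change was 0.46 over the members and -0.01 over all tested genes. Il6 passed the filter only through DAC libraries, so it had to differ here.

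Ptgs2 was at 47.8, 48.9 and 47.7 FPKM in the WT DAC libraries. These 3 values were close together and far above the 2 WT DMSO values (2.04 ± 0.12, adjusted p = 1.1e-05). Il6 was at 1.76, 2.15 and 1.12 FPKM (62, 79 and 39 reads), with every DAC library above both DMSO libraries (1.20 ± 0.16, adjusted p = 8.0e-04). Lif was at 5.28, 4.82 and 4.06 FPKM, also without overlap (1.76 ± 0.13, adjusted p = 4.1e-05). Csf1, already high with DMSO, reached 70.5, 68.2 and 59.2 FPKM (0.90 ± 0.08, adjusted p = 9.3e-05). Without WT DAC replicate 3 and KO DAC replicate 1 these 4 remained called and their direction was unchanged.

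The other 3 rises were smaller on the log2(FPKM + 1) scale. Hgf was at 1.76, 1.94 and 2.41 FPKM in WT DAC libraries (0.51 ± 0.14, adjusted p = 0.0284), all above both DMSO values. That call was lost at adjusted p of 0.142 without WT DMSO replicate 1, 0.0937 without WT DMSO replicate 2, 0.0591 without WT DAC replicate 2 and 0.0677 without WT DAC replicate 3, with a pseudocount of 0.1 (0.0507), with no filter (0.0573) and without both libraries that stood apart (0.0712; range 0.017 to 0.142). Ptgs1 was at 13.9, 13.7 and 11.4 FPKM (0.32 ± 0.09, adjusted p = 0.0246), above both DMSO values. It lost its call with only the groups compared (adjusted p = 0.0882) and at 0.118 without WT DMSO replicate 1, 0.101 without WT DMSO replicate 2, 0.0702 without WT DAC replicate 1 and 0.0756 without WT DAC replicate 2 (range 0.00061 to 0.118). Lcn2 was at 0.566, 0.473 and 0.452 FPKM (48, 42 and 38 reads), every library above the DMSO libraries (0.41 ± 0.11, adjusted p = 0.0214). Its call was lost at 0.107 without WT DMSO replicate 1, 0.0838 without WT DMSO replicate 2, 0.0663 without WT DAC replicate 1 and 0.0526 without WT DAC replicate 2 (range 0.0057 to 0.107). Ptx3 was at 14, 14.3 and 12.5 FPKM, lower than in either WT DMSO library (-0.89 ± 0.12, adjusted p = 9.1e-04). Ptges was at 1.39, 1.46 and 1.13 FPKM (-0.29 ± 0.16, adjusted p = 0.207) and Saa3 at 0.349, 0.445 and 0.235 FPKM from 6, 8 and 4 reads (0.34 ± 0.18, adjusted p = 0.192). By limma-voom on recovered reads the changes were 3.36 for Il6, 2.81 for Lif, 0.83 for Hgf and 1.98 for Lcn2.

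Other genes of these pathways mostly rose with DAC in WT cells in some lists and went both ways in others. Of 29 genes of NF-kB, IL-1 and Toll-like receptor signalling 13 were higher and 1 lower (list median 0.26, against -0.01 over all tested genes). Bcl3, an NF-kB cofactor, was at 3.12 ± 0.386 FPKM with DMSO (SD, n = 2) and 7.95 ± 0.863 FPKM with DAC (n = 3; log2 1.12 ± 0.12, adjusted p = 2.4e-04), and Tlr2 was the gene that fell (4.98 to 2.61 FPKM, log2 -0.72 ± 0.15, adjusted p = 0.0064). Of 9 genes of HGF, its activation and its receptor 7 were higher and 0 lower, with Plaur, the urokinase receptor, at 6.27 FPKM with DMSO and 17.8 FPKM with DAC (log2 1.38 ± 0.14, adjusted p = 2.1e-04). In prostaglandin synthesis 6 of 11 were higher and 0 lower, led by the secreted phospholipase Pla2g2e (1.07 to 3.46 FPKM, log2 1.11 ± 0.08, adjusted p = 3.9e-05). Among 9 IL-6 family genes 2 were higher and 4 lower: the IL-6 receptor Il6ra rose (4.85 to 10.3 FPKM, log2 0.94 ± 0.09, adjusted p = 1.0e-04) and the IL-11 receptor Il11ra1 fell (13.6 to 5.41 FPKM, log2 -1.19 ± 0.10, adjusted p = 5.8e-05). Of 15 C/EBP, STAT3 and mRNA decay regulators 5 were higher and 4 lower. Among 5 other colony-stimulating factors and receptors 1 was higher and 2 were lower. Of 9 genes of prostaglandin receptors, transport and breakdown 3 were higher and 2 lower, and of 6 other acute-phase genes 3 were higher and 1 lower. The inducer Il1b was at 0 in WT DAC libraries, and Tnf was at 0.152 to 0.252 FPKM, above its values in the DMSO libraries. The part of inducers in the members' changes was not tested. Summed fibroblast markers were at 2239 to 2399 FPKM in WT DAC, below the WT DMSO libraries, with 1 of 11 higher and 8 lower, and their part in the members' changes was not tested.

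**Figure D2:**
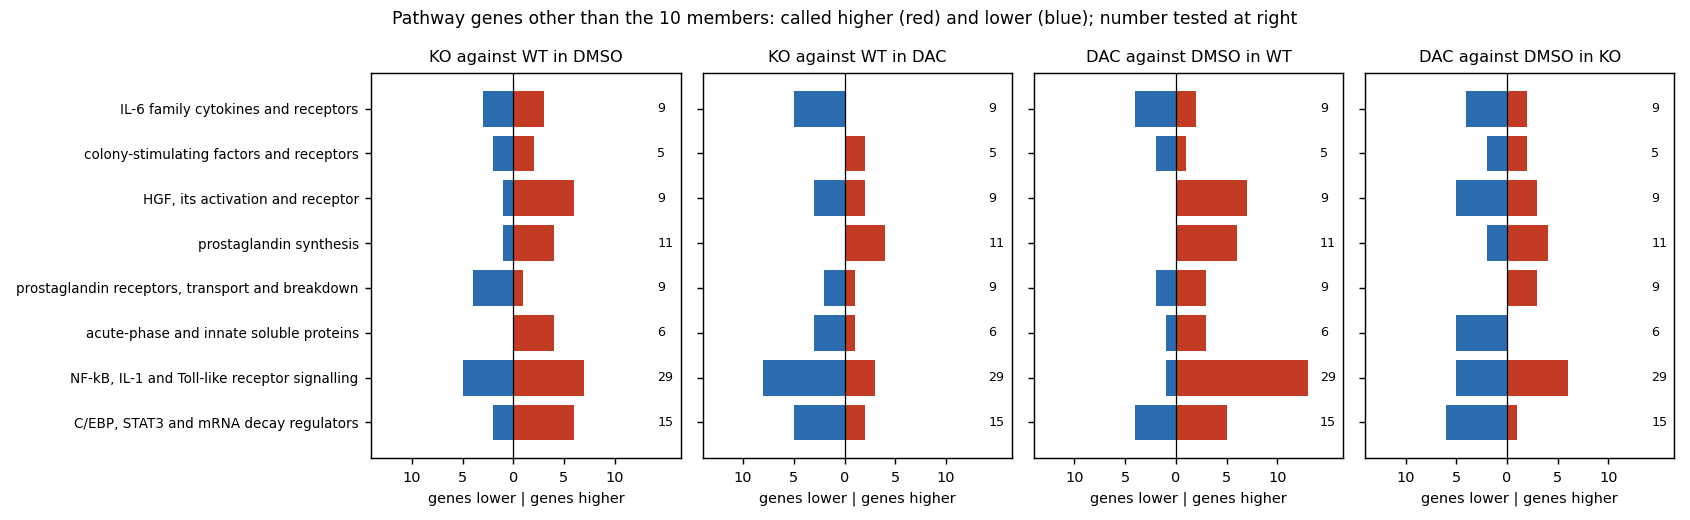
Numbers of genes other than the 10 members called higher (red, to the right) and lower (blue, to the left) in each of 8 pathway lists, for the 4 KO against WT and DAC against DMSO comparisons of the DAC table; the number of genes tested stands at the right of each bar. The NF-kB, IL-1 and Toll-like receptor list has 13 genes higher and 1 lower with DAC in WT cells, and 6 higher and 5 lower in KO cells.

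In KO cells with DAC, Ptgs2, Ptx3, Csf1, Il6, Ptges and Hgf were higher than with DMSO, and Saa3, Ptgs1 and Lcn2 were lower. KO DMSO and KO DAC libraries also differed in Xist and in the mesothelial marker sum, by the values given above. An effect of DAC and another difference between these cultures therefore cannot be told apart. The 6 members called higher and 3 called lower stand beside 23.7% of all tested genes called higher and 21.6% called lower, and the median log2 fold change was 0.66 over the members and 0.01 over all tested genes. Saa3, Lcn2 and Il6 passed the filter through 1 arm of this comparison and had to differ. Lif was not called: 3.29, 4.09 and 3.59 FPKM with DAC lay on both sides of the KO DMSO values (0.04 ± 0.13, adjusted p = 0.849).

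Among the genes that rose, Ptgs2 was at 33.2, 32.2 and 26.9 FPKM in the KO DAC libraries (1.74 ± 0.12, adjusted p = 5.4e-06). Csf1 was at 51.9, 54.8 and 53.4 FPKM (0.96 ± 0.08, adjusted p = 2.1e-05), and Il6 was at 2.25, 1.8 and 1.94 FPKM from 75, 61 and 78 reads (0.74 ± 0.16, adjusted p = 0.00547). Every DAC library was above every DMSO library for these 3 genes. Ptx3 was at 4.26, 5.49 and 5.9 FPKM, above KO DMSO but still below every WT library (1.05 ± 0.12, adjusted p = 1.7e-04). Ptges was at 1.87, 2.7 and 2.27 FPKM, also without overlap (0.73 ± 0.16, adjusted p = 0.00499). Hgf was at 1.43, 1.51 and 1.76 FPKM (0.59 ± 0.14, adjusted p = 0.00913), and the gap rested in part on KO DMSO replicate 2, without which it was 0.39 with an adjusted p of 0.0814 (range 0.0039 to 0.0814).

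Among the genes that fell, Ptgs1 was at 12.3, 13.5 and 13.3 FPKM in KO DAC libraries (-1.43 ± 0.09, adjusted p = 3.1e-06), a range that overlapped that of WT DAC. Saa3 was at 0, 0.362 and 0.408 FPKM (0, 6 and 8 reads; -3.43 ± 0.18, adjusted p = 1.3e-06), and Lcn2 was at 0.0992, 0.0976 and 0.186 FPKM (8, 8 and 18 reads; -1.07 ± 0.11, adjusted p = 7.3e-05). The read numbers of both genes in KO DAC libraries overlapped those in WT DMSO libraries. By limma-voom on recovered reads the changes in KO cells were 1.32 for Il6, 1.22 for Hgf, 1.23 for Ptges, -6.12 for Saa3 and -3.40 for Lcn2. The summed mesothelial markers were also lower in KO DAC than in KO DMSO libraries, by the values given above, and the fibroblast marker sum was 2066 to 2101 FPKM in KO DMSO and 1842 to 2041 FPKM in KO DAC, with 4 of 11 tested markers higher and 6 lower. Their part in these falls was not tested. Other acute-phase genes fell too: 5 of 6 were lower and 0 higher, with Hp at 12.7 FPKM with DMSO and 0.536 FPKM with DAC (log2 -3.16 ± 0.18, adjusted p = 2.4e-06). Ptgds went from 18.5 to 0.358 FPKM (log2 -3.84 ± 0.09, adjusted p = 5.7e-08), whereas Pla2g2e went from 1.19 to 5.73 FPKM (log2 1.62 ± 0.08, adjusted p = 1.2e-06), and 4 of the 11 genes of prostaglandin synthesis were higher and 2 lower. In the NF-kB list 6 of 29 were higher and 5 lower.

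The DAC responses of both genotypes were compared directly by the interaction, the log2 change in KO minus that in WT. It was called for 6 members: 2 higher, Ptx3 (1.94 ± 0.17, adjusted p = 8.9e-05) and Ptges (1.03 ± 0.22, adjusted p = 0.0103), and 4 lower, Saa3 (-3.77 ± 0.25, adjusted p = 1.9e-05), Ptgs1 (-1.75 ± 0.12, adjusted p = 2.4e-05), Lif (-1.72 ± 0.19, adjusted p = 2.5e-04) and Lcn2 (-1.48 ± 0.15, adjusted p = 2.0e-04). Over all tested genes 12.4% were called higher and 11.7% lower, and the medians were -0.38 over the members and 0.04 over all tested genes. The interaction contains the KO DMSO libraries, whose levels of these 6 genes already differed from WT. Its KO arm carries the same limit as DAC against DMSO in KO cells. Saa3 and Lcn2 passed the filter only through KO DMSO libraries and so had to differ here too. That leaves 4 members that did not have to differ. The response was not called different for Csf1 (0.06 ± 0.11, adjusted p = 0.761), Hgf (0.08 ± 0.20, adjusted p = 0.822) or Ptgs2 (-0.30 ± 0.16, adjusted p = 0.236), which does not show that it was equal. For Il6 (-0.46 ± 0.23, adjusted p = 0.188) it was called with a pseudocount of 0.1 (-1.57, adjusted p = 0.0213), without WT DAC replicate 3 (-0.62, adjusted p = 0.0311) and without both libraries that stood apart (-0.68, adjusted p = 0.023), in a range of 0.021 to 0.385. By limma-voom on recovered reads the interaction was -2.76 for Lif, 1.70 for Ptges, -8.55 for Saa3 and -5.38 for Lcn2. In the NF-kB list 0 of 29 genes had a higher and 9 a lower response in KO.

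With DAC in both genotypes, 5 members differed between KO and WT. Ptx3, Ptgs2, Lcn2 and Csf1 were lower in KO and Ptges was higher. The 1 member called higher and 4 called lower stand beside 11.1% of all tested genes called higher and 11.6% called lower, with medians of -0.27 and -0.00. Ptx3 (-1.24 ± 0.11, adjusted p = 1.1e-04) and Ptgs2 (-0.63 ± 0.10, adjusted p = 0.00301) were lower in each KO library than in any WT library and stayed called under every alternative run. The Csf1 difference (-0.30 ± 0.07, adjusted p = 0.0185) was without overlap, but was lost at adjusted p of 0.064 without WT DAC replicate 1, 0.0676 without WT DAC replicate 2, 0.0523 without KO DAC replicate 1 and 0.0528 without KO DAC replicate 3 (range 0.0031 to 0.0676). Lcn2 (-0.41 ± 0.10, adjusted p = 0.0175; -1.94 by limma-voom) was lost at adjusted p of 0.0658 without WT DAC replicate 1, 0.0511 without WT DAC replicate 2 and 0.0542 without KO DAC replicate 2 and without both libraries that stood apart (0.0647; range 0.0024 to 0.0658).

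Ptges (0.49 ± 0.14, adjusted p = 0.0373; 0.77 by limma-voom) was the member called higher in KO DAC. Its call was lost with no filter (adjusted p = 0.0716), without both libraries that stood apart (0.0601), and at 0.0565 without KO DMSO replicate 1, 0.0566 without KO DMSO replicate 2, 0.0789 without WT DAC replicate 1, 0.0684 without WT DAC replicate 2, 0.0895 without WT DAC replicate 3, 0.116 without KO DAC replicate 2 and 0.0901 without KO DAC replicate 3 (range 0.011 to 0.116). The other 5 members were not called here: Il6 at 0.18 ± 0.14 (adjusted p = 0.43), Lif at -0.29 ± 0.12 (0.113), Hgf at -0.24 ± 0.13 (0.22), Ptgs1 at 0.01 ± 0.08 (0.962) and Saa3 at -0.11 ± 0.16 (0.674). In the IL-6 family list 0 of 9 genes were higher and 5 lower in KO DAC. In prostaglandin synthesis 4 of 11 were higher and 0 lower.

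The siRNA table was normalised apart from the DAC table, so its values are set beside those above and not tested against them. In its NT control libraries Ptgs1 and Saa3 were higher and Ptgs2 and Lif were lower in KO than in WT. The other 4 members (Il6, Hgf, Ptges and Lcn2) did not pass the filter of at least 1 RPKM in at least 3 libraries and were not tested. Saa3 passed only through KO libraries and had to differ. The 2 members called higher and 2 called lower of 6 tested stand beside 23.7% of all 12668 tested genes called higher and 40.4% called lower. Centring each library on its median shifted the median over all genes by 0.13 on the log2 scale and moved the higher share of calls from 37% to 53.1%, with the members' counts still at 2 and 2.

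**Figure D3:**
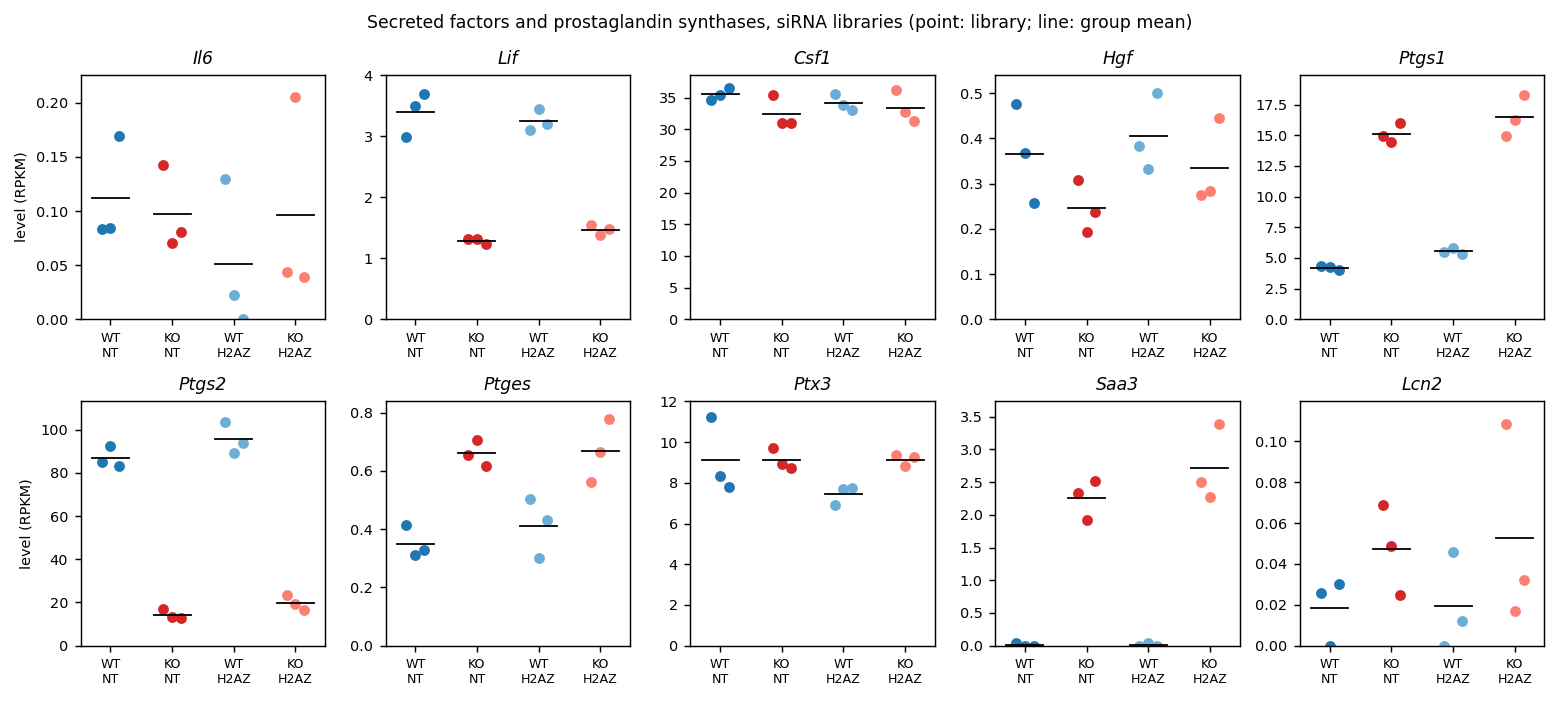
Levels of the 10 genes in RPKM (vertical axis, from 0, with its own scale per gene) in the 3 libraries each of WT and KO cells given NT or H2AZ siRNA; points are libraries and lines are group means. Ptgs2 and Lif are higher in all WT libraries, Ptgs1 and Saa3 are higher in all KO libraries, and the axis of Il6 ends near 0.2 RPKM.

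Ptgs2 was at 85, 92.3 and 83 RPKM in WT NT and 16.8, 13.2 and 13 RPKM in KO NT libraries. The lowest WT value lay far above the highest KO value (-2.52 ± 0.12, adjusted p = 1.8e-08). Ptgs1 ran the other way, at 4.32, 4.27 and 4.03 RPKM in WT and 14.9, 14.5 and 16 RPKM in KO (1.63 ± 0.07, adjusted p = 6.8e-09). Lif was at 2.99, 3.51 and 3.7 RPKM in WT and 1.31, 1.31 and 1.24 RPKM in KO (-0.94 ± 0.07, adjusted p = 4.9e-07), whereas in DMSO it was higher in KO. Saa3 was at 0.0425, 0 and 0 RPKM in WT (1, 0 and 0 reads) and 2.33, 1.92 and 2.51 RPKM in KO (48, 40 and 61 reads; 1.68 ± 0.10, adjusted p = 1.7e-07, and 6.13 by limma-voom on recovered reads). With 1 read in all WT NT libraries together, both Saa3 values depend on the constant that is added, and neither is read as a fold.

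Csf1 and Ptx3 were not called between the genotypes with NT siRNA. Csf1 was at 34.6, 35.4 and 36.5 RPKM in WT and 35.4, 31 and 31 RPKM in KO (-0.13 ± 0.06, adjusted p = 0.0996). It was called without KO NT replicate 1 (-0.19, adjusted p = 0.0174) and without both libraries that stood apart (-0.21, adjusted p = 0.0212), in a range of 0.017 to 0.963. Ptx3 was at 11.2, 8.36 and 7.81 RPKM in WT and 9.7, 8.92 and 8.74 RPKM in KO, overlapping (0.01 ± 0.10, adjusted p = 0.929), whereas with DMSO it was far lower in KO. The untested Ptges was at 0.413, 0.31 and 0.327 RPKM in WT and 0.655, 0.706 and 0.618 RPKM in KO. Il6 stayed at or under 0.205 RPKM (0 to 10 reads) and Lcn2 at or under 0.109 RPKM (0 to 12 reads) in all 12 libraries, and Hgf lay between 0.194 and 0.500 RPKM.

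Summed mesothelial markers were again higher where Saa3 and Ptgs1 were: 23.1 to 24.6 RPKM in WT NT, 196.5 to 222.9 RPKM in KO NT, 23.1 to 23.6 RPKM in WT H2AZ siRNA and 182.0 to 195.6 RPKM in KO H2AZ siRNA libraries. Upk1b and Wt1 were at 0 in both WT groups. Lcn2, which was high along with these markers in KO DMSO, was too low to be tested here. Summed fibroblast markers were at 1679 to 1769 RPKM in WT NT and 2394 to 2511 RPKM in KO NT libraries, with 7 of 10 tested markers higher and 1 lower in KO. The part of either list in the members' levels was not tested. Among the other pathway genes, prostacyclin synthase (Ptgis) was listed at 0 in every WT NT library and at 3.91 ± 0.293 RPKM in KO NT (SD, n = 3; adjusted p = 2.0e-10). The phospholipase Pla2g4a, which releases arachidonic acid, was at 21.5 ± 1.91 RPKM in WT and 8.57 ± 1.07 RPKM in KO (log2 -1.24 ± 0.10, adjusted p = 9.8e-07). In all, 4 of 8 non-member genes tested in prostaglandin synthesis were higher and 4 lower. In the NF-kB list 13 of 26 were higher and 5 lower in KO NT, with Bcl3 at 0.798 RPKM in WT and 1.96 RPKM in KO (log2 0.72 ± 0.13, adjusted p = 4.3e-04). Of 16 C/EBP, STAT3 and mRNA decay regulators 8 were higher and 5 lower, and Cebpa was at 0.312 RPKM in WT and 2.59 RPKM in KO (log2 1.45 ± 0.10, adjusted p = 5.3e-07).

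With H2AZ siRNA the same 4 members differed between the genotypes in the same directions, and Ptx3 was also called higher in KO. Of these, Saa3 passed the filter only through KO libraries and had to differ here as well. Ptgs2 was at 103, 89.2 and 93.9 RPKM in WT and 23.6, 19.3 and 16.4 RPKM in KO (-2.23 ± 0.12, adjusted p = 5.1e-08), and Ptgs1 at 5.45, 5.81 and 5.34 RPKM in WT and 14.9, 16.2 and 18.3 RPKM in KO (1.42 ± 0.07, adjusted p = 2.0e-08). Lif was at 3.11, 3.45 and 3.2 RPKM in WT and 1.55, 1.39 and 1.48 RPKM in KO (-0.78 ± 0.07, adjusted p = 2.3e-06). None of these 3 genes overlapped between the genotypes. Saa3 had 0, 1 and 0 reads in the WT libraries and 56, 54 and 85 reads, or 2.51, 2.27 and 3.39 RPKM, in the KO libraries (1.86 ± 0.10, adjusted p = 7.1e-08; 6.26 by limma-voom). The 3 members called higher and 2 called lower stand beside 20.2% of all tested genes called higher and 42.7% called lower, and the medians were 0.12 over the tested members and -0.12 over all tested genes. Median centring moved the higher share of calls from 32.2% to 54.1%, shifted the median over all genes by 0.15, and left the members' counts at 3 and 2.

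The Ptx3 call with H2AZ siRNA was a narrow one. It was at 6.9, 7.69 and 7.75 RPKM in WT and 9.35, 8.82 and 9.26 RPKM in KO, without overlap (0.27 ± 0.10, adjusted p = 0.0389), and at 0.42 under median centring. The call was lost with no filter (adjusted p = 0.0994) and at 0.129 without WT H2AZ siRNA replicate 1, 0.0583 without WT H2AZ siRNA replicate 2, 0.0553 without WT H2AZ siRNA replicate 3, 0.0919 without KO H2AZ siRNA replicate 1, 0.059 without KO H2AZ siRNA replicate 2 and 0.0869 without KO H2AZ siRNA replicate 3 (range 0.00095 to 0.129). Csf1 was at 35.5, 33.8 and 33.1 RPKM in WT and 36.2, 32.7 and 31.3 RPKM in KO and was not called (-0.03 ± 0.06, adjusted p = 0.67).

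**Figure D4:**
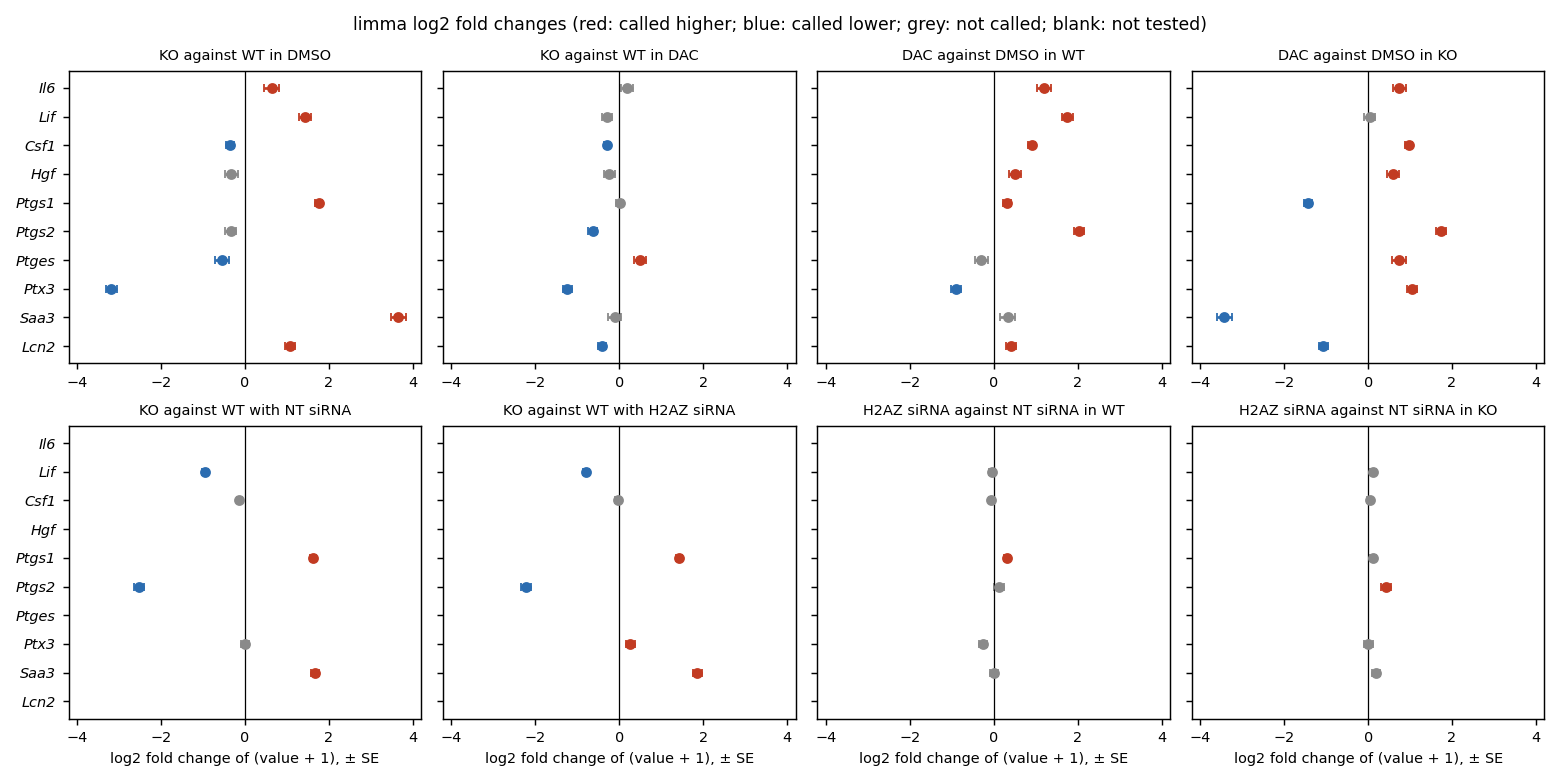
Log2 fold changes of (value + 1) with their standard errors (horizontal axis) for the 10 genes (vertical axis) in the 4 comparisons of the DAC table and the 4 of the siRNA table; red points were called higher, blue called lower, grey not called, and genes without a point were not tested. KO against WT reaches 3.66 for Saa3 and -3.18 for Ptx3 in DMSO and -2.52 for Ptgs2 with NT siRNA, while the changes with H2AZ siRNA in either genotype stay within 0.43 of 0.

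Few members were called in the H2AZ siRNA against NT siRNA comparisons. In WT cells only Ptgs1 was called among the 6 tested members. Its level with H2AZ siRNA was above every NT library (0.33 ± 0.07, adjusted p = 0.00858), and it stayed called under every alternative run. The 1 member called higher and 0 called lower stand beside 4.88% and 10.4% of all tested genes. The other 5 were not called: Lif at -0.05 ± 0.07 (adjusted p = 0.701), Csf1 at -0.06 ± 0.06 (0.615), Ptgs2 at 0.14 ± 0.12 (0.498), Ptx3 at -0.25 ± 0.10 (0.121) and Saa3 at 0.00 ± 0.10 (0.995). Median centring moved the higher share of calls over all genes from 32% to 59.8% and left the members' counts at 1 and 0.

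In KO cells only Ptgs2 was called with H2AZ siRNA (0.43 ± 0.12, adjusted p = 0.0226), and its libraries overlapped those with NT siRNA as groups. Each same-numbered pair had more Ptgs2 with H2AZ siRNA, at 16.8 and 23.6 RPKM in the first, 13.2 and 19.3 RPKM in the second and 13 and 16.4 RPKM in the third, and with a replicate block the adjusted p was 0.00669. The call was lost with no filter (adjusted p = 0.0756), with only the groups compared (0.0774), and at 0.0645 without KO NT replicate 2, 0.0819 without KO NT replicate 3, 0.0806 without KO H2AZ siRNA replicate 1 and 0.0562 without KO H2AZ siRNA replicate 2 (range 0.0057 to 0.0819). The 1 member called higher and 0 called lower stand beside 6.56% and 19% of all tested genes. Median centring moved the higher share of calls over all genes from 25.7% to 59.5% and left the members' counts at 1 and 0. Changes not called were 0.11 ± 0.07 for Lif (adjusted p = 0.253), 0.04 ± 0.06 for Csf1 (0.701), 0.11 ± 0.07 for Ptgs1 (0.26), 0.00 ± 0.10 for Ptx3 (0.982) and 0.19 ± 0.10 for Saa3 (0.22). In the NF-kB list 0 of 26 genes were higher and 8 lower, and Plaur rose from 20.3 to 34.3 RPKM (log2 0.72 ± 0.11, adjusted p = 0.00109).

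The H2AZ siRNA responses of KO and WT cells were not called different for any of the 6 members by limma, against 0.00789% of all tested genes called higher and 0% called lower. At an unadjusted p under 0.05 there was 1 member, Ptgs1 (-0.22 ± 0.10, adjusted p = 0.574), and limma-voom on recovered reads also called 0. The only gene called was H2afz itself, chosen for mention after its value was seen (0.72 ± 0.08, adjusted p = 0.0122), and 1095 genes had an unadjusted p under 0.05.

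The balance of the synthases that make prostaglandin H2 was described by the ratio of the Ptgs2 level to the Ptgs1 level in each library, both per length. With DMSO it was 1.07 ± 0.114 in WT and 0.230 ± 0.0348 in KO (SD, n = 2 each), and with DAC 3.73 ± 0.402 in WT and 2.37 ± 0.346 in KO (n = 3 each). No group overlapped another in the DAC table. With NT siRNA it was 20.6 ± 0.957 in WT and 0.950 ± 0.158 in KO, and with H2AZ siRNA 17.3 ± 1.81 in WT and 1.22 ± 0.342 in KO (n = 3 each). All 6 WT libraries of the siRNA table had at least 15.4 times as much Ptgs2 as Ptgs1, and the 6 KO libraries had 0.813 to 1.58 times as much. The KO ratio was lower than the WT ratio in every matched pair of groups. Between the genotypes Ptgs1 but not Ptgs2 was called in DMSO, Ptgs2 but not Ptgs1 in DAC, and both genes in the siRNA table.

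**Figure D5:**
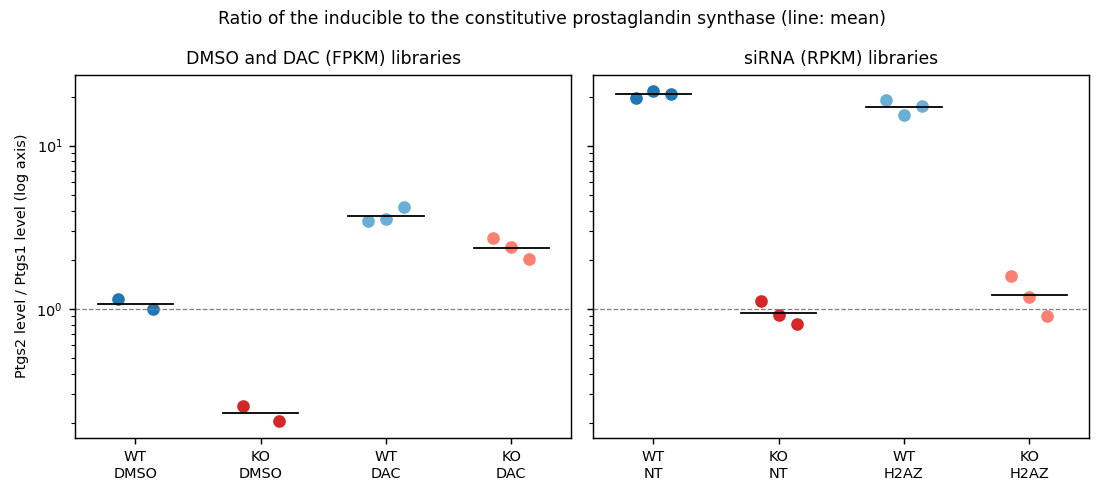
Ratio of Ptgs2 to Ptgs1 level in each library (vertical axis, logarithmic; points are libraries, lines group means, dashed line equal levels) for the DAC table on the left and the siRNA table on the right. The ratio lies below 1 in both KO DMSO libraries and above 15 in all 6 WT libraries of the siRNA table.

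Read by level within the DAC table, Csf1 was the most abundant member in every group but KO DMSO, where Ptgs1 was. Ptgs2 ordered the groups as KO DMSO, WT DMSO, KO DAC and WT DAC from low to high, and Ptx3 as KO DMSO, then KO DAC, then WT DAC, then WT DMSO, with no overlap between neighbours. For Lif WT DMSO was lowest, followed by KO DMSO, KO DAC and WT DAC in turn, and the libraries of KO DMSO and KO DAC overlapped, as did those of KO DAC and WT DAC. Il6 ran from WT DMSO through KO DMSO to WT DAC and KO DAC, whose ranges overlapped. Ptgs1 overlapped between KO DAC and WT DAC, was lower in WT DMSO and was highest in KO DMSO. Saa3 was above 1 FPKM only in the KO DMSO libraries, as was Lcn2. In the siRNA table Csf1 was the most abundant member in the KO groups and Ptgs2 in the WT groups.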

How the data were processed

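RNA expression was taken from 22 libraries of mouse embryonic fibroblasts, in 4 groups for each of 2 tables. FPKM (DAC table) and RPKM (siRNA table) values were computed by the authors and are used as deposited. STAR, Bowtie2, deepTools and the build mm10 are named per the submitters' processing notes. Tool versions, the read counter, the annotation, the use of strand and the scaling totals are not given in the sources, and without strand, reads of overlapping antisense genes cannot be told apart. Libraries were prepared with a stranded total RNA kit per the labels. Steps between values gave whole reads within 0.01 for all 35023 genes above 0, and 1 read in a gene of 1 kb was worth 0.0271 to 0.0364 FPKM and 0.0212 to 0.0313 RPKM. Precision for genes of a few reads is limited by that step.

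The filter kept genes at 1 or more in at least 2 libraries of the DAC table (16434 genes) and in at least 3 of the siRNA table (12668). They were tested with limma 3.58.1 (R 4.3.3, intensity trend) on log2 of the value plus 1. Each table was fitted once over its 4 groups, with Benjamini-Hochberg adjustment over all tested genes and calls at an adjusted p under 0.05. Alternatives were no filter on low values, a filter at 5, a pseudocount of 0.1, centring on medians, a replicate block, only the groups compared and leaving out each library. Same-numbered KO NT and KO H2AZ siRNA libraries deviated together from their group means (r of 0.144 to 0.270 in 3 pairs, against -0.248 to 0.063 for other pairs), a pairing that comes from the data and not from the labels. Limma-voom on recovered reads was run too, and leaving out the libraries that stood apart was chosen after the data were seen. A lone library left in a group is taken to vary as those of the other groups do. The members, lists and tests were chosen with earlier results of these data known. Pathway genes named in the text are the called non-members with the largest rise or fall of a list, if the higher group's mean reached 1, and the text prints part of them. Il6st, Met, Il1b and Tnf are named beyond that rule. The fit was also run on simulated data with known changes. Those data had the same dispersion for every gene and no library that stood apart, so they do not cover such libraries. Promoters and positions are RefSeq's (GRCm38.p6), and windows of chromosome 18 were not used. Other steps used Python 3.11.15, pandas 2.3.3, numpy 2.4.6 and matplotlib 3.10.9.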

Additional observations from a re-analysis of the deposited data

Results flagged for a closer look

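For 6 members the response to DAC differed between KO and WT cells by limma's interaction test (the log2 change in KO minus that in WT). The difference was -3.77 for Saa3, -1.75 for Ptgs1, -1.72 for Lif and -1.48 for Lcn2, and 1.94 for Ptx3 and 1.03 for Ptges. Ptgs1 rose in WT and fell in KO cells, and Ptx3 fell in WT and rose in KO cells. The Ptgs1 rise in WT cells was small (0.32 ± 0.09) and lost its call under several alternatives, as given above. Lif rose in WT cells and was not called in KO cells, whereas Ptges and Saa3 were not called in WT cells and were called in KO cells. Saa3 and Lcn2 passed the filter on low values only through KO DMSO libraries, so once tested they had to differ. All 6 genes differed between KO and WT under DMSO, and the summed mesothelial markers of the KO DMSO libraries (1040 to 1073 FPKM) lay above those of every other group of the table. The part of those markers in the differences was not tested.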

How the results depend on the processing

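No member changed sign in a called comparison under any alternative run. Of 1529 values of single members under alternatives 1458 kept their side of the threshold, 60 lost a call and 11 gained one, and the report names the settings. In 18 values, none called in either fit, the sign differed from the value reported. With a filter at 5, which left 5 members tested for DAC and 4 for siRNA, KO against WT had 2 members higher in DMSO and 0 in DAC, DAC had 3 higher in WT and 3 in KO, and the DAC interaction had 1 higher and 2 lower. In the siRNA table that filter left 1 higher and 1 lower for KO against WT with NT siRNA and 1 lower with H2AZ siRNA. The count of members higher in KO with DAC went from 1 to 0 with no filter and without both libraries that stood apart, and that of members higher with H2AZ siRNA in KO from 1 to 0 with no filter and with only the groups compared. The cause of these last changes was not tested. Leaving out 1 library gave 0 to 1 higher and 2 to 4 lower for KO against WT in DAC, 4 to 7 higher for DAC in WT, and 0 to 1 higher for H2AZ siRNA in KO.

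The replicate numbers paired the libraries in 1 comparison, H2AZ siRNA in KO cells, where the block changed no member's call. In the other comparisons a pairing was less clear. After group means were removed, same-numbered libraries correlated at -0.225 to 0.126 (DAC table) and -0.104 to 0.319 (siRNA table, all groups). Of the libraries, 4 of 10 and 7 of 12 correlated best with their own number. Between WT NT and KO NT the same-numbered pairs were at 0.023 to 0.319 and the others at -0.246 to 0.176, which overlap. Whether a number marks something shared there was not tested. With a replicate block KO against WT in DMSO had 4 members lower in place of 3 (Ptgs2, adjusted p = 0.0491), and DAC in WT had 5 higher in place of 7 (Hgf 0.0747, Lcn2 0.0661). Over all genes, counts of calls moved by over 1.5 times for DAC in WT without WT DMSO replicate 2 (4658 to 2491). They did so for H2AZ siRNA in WT without replicate 1 (1933 to 1125) or 3 (1205) of that group, and in KO with only the groups compared (3235 to 2093) or without H2AZ siRNA replicate 2 (2129). The H2AZ siRNA interaction had 0 to 3 calls against 1. Il6, Saa3 and Lcn2 rest on few reads outside the groups where they are high.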
